A study of Rattus norvegicus with 18 samples.

Results

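The report covers 9 genes that encode the enzymes of serine synthesis and of folate-bound one-carbon metabolism, Phgdh, Psat1, Psph, Shmt1, Mthfd1, Shmt2, Mthfd2, Mthfd1l and Aldh1l2. They were taken by symbol from the gene tables of both genotypes, and each symbol stood on a single row of each table, so that 9 of 32623 genes are described. RNA-seq was performed on bone marrow MSCs (mesenchymal stem cells) at passage 3 from 2-month-old rats on the SD (Sprague-Dawley) background, either miR-337-/- (KO) or wild type (WT). All cells were first starved of serum for 8 h. They were then stretched (10% cyclic mechanical stretch, CMS), given fetal bovine serum (FBS) or left without serum (SSt), each for 24 h by the labels, whereas the study's methods give a shorter time. The 6 groups were KO CMS, KO FBS, KO SSt, WT CMS, WT FBS and WT SSt, with 3 libraries in each. No source used here says if the libraries within a group are from separate animals or dishes. The p-values therefore cover the spread among these libraries only, which may be technical. The cells were adherent cultures from flushed marrow, with no sorting given for this experiment. WT and KO cells stand in separate tables, and a genotype difference cannot be told apart from any other difference between the 2 sets of cultures.

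Serine is made from a glycolytic intermediate in a short chain of reactions: Phgdh oxidises 3-phosphoglycerate, Psat1 transfers an amino group to the product, and Psph removes the phosphate. Serine hydroxymethyltransferases (Shmt1 in the cytosol, Shmt2 in mitochondria) then split serine into glycine and a carbon unit carried by tetrahydrofolate, which dividing cells use to build purines and thymidylate. Mitochondrial Mthfd2 and Mthfd1l turn that unit into formate, Aldh1l2 burns it to CO2, and cytosolic Mthfd1 takes formate back into the folate pool. ATF4, a transcription factor of the amino acid stress response, is known to activate several of these genes.

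Depth ran between 56083000 and 71847969 counts per library. The row of Mir337 held a count of 0 in all 18 libraries, so the tables do not show the deletion. Lepr encodes the receptor whose protein the study uses to mark MSCs in marrow and in culture. Its RNA averaged 0 to 0.0242 FPKM (fragments scaled to gene length and library total) over the groups, and protein was not measured here. Col1a1, a collagen gene of stromal cells, averaged 781 to 1881 FPKM. Of 10 macrophage and other blood cell markers, 7 had a mean of at least 1 FPKM in every group, with a summed level per library of 3736 to 4032 FPKM in KO CMS, 3594 to 4506 in KO FBS, 1918 to 2025 in KO SSt, 5611 to 5920 in WT CMS, 5806 to 6152 in WT FBS and 3299 to 3449 in WT SSt, and with Cd3e and Mpo at 0 in every group. Lyz2 made up most of each sum, with group means of 1517 to 4987 FPKM. The markers did not all move with it: Cd14 averaged 164 FPKM in WT CMS, against 558 in WT SSt. By edgeR (adjusted p under 0.05), 4 of the 7 tested were higher and 3 lower in WT CMS over WT SSt, where 34.6% and 32.3% of all genes were. In KO CMS over KO SSt 5 were higher and 1 lower, where 30.8% and 30.7% of all genes were. The treatment labels and the markers of dividing cells ran in opposite directions: the 8 markers summed to 92.3 to 111 FPKM in KO CMS, 98.9 to 187 in KO FBS, 519 to 566 in KO SSt, 205 to 210 in WT CMS, 213 to 228 in WT FBS and 322 to 332 in WT SSt, highest in the libraries labelled as starved. The labels were used as given. If SSt had been exchanged with another treatment, the changes over SSt and the KO over WT values within a treatment below would not hold as stated. Single markers of other cell types moved with the groups as well. Fabp4, a fatty acid carrier and the only 1 of 5 listed adipocyte markers tested, had 244 to 311 FPKM in KO CMS, 40.4 to 249 in KO FBS, 10.8 to 12.8 in KO SSt, 614 to 770 in WT CMS, 554 to 642 in WT FBS and 15.6 to 20.9 in WT SSt. The other listed adipocyte markers, Adipoq, Plin1, Lep and Cidec, were near absent, with group means of at most 0.0644 FPKM. Sp7, an osteoblast transcription factor, had 3.31 to 5.32 FPKM in KO SSt and 0.397 to 0.567 in WT SSt, and at most 0.190 in any treated library. In KO SSt over WT SSt, 6 of the 7 blood cell markers tested were lower, where 23.2% of all genes were. The part of these markers in the results was not tested. In bulk RNA, fewer cells of a type and less RNA per cell cannot be told apart. KO FBS replicate 1 stood apart: its mean correlation was 0.975 with the other KO FBS libraries and 0.978 with the KO CMS libraries, so results that rest on it are also given without it.

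Upstream sequences are shown for Phgdh and Psat1, which were called between the genotypes under starvation, for Shmt1, whose response to treatment depended on the genotype, and for Mthfd1l, the member with the widest range over the groups. They are the 250 bases before the annotated start in RefSeq (build GRCr8, 5′ to 3′ on the gene's strand): Phgdh at chr2:188624790-188625039 (minus strand), Psat1 at chr1:222645409-222645658 (minus), Shmt1 at chr10:45990342-45990591 (minus) and Mthfd1l at chr1:42849174-42849423 (plus). Capitals mark matches, on either strand, to CACGTG (the E-box bound by MYC and related factors), CCAAT (the box bound by NF-Y, read as ATTGG on the other strand) or TGATGNAA (the composite element bound by ATF4 with C/EBP factors).
Phgdh: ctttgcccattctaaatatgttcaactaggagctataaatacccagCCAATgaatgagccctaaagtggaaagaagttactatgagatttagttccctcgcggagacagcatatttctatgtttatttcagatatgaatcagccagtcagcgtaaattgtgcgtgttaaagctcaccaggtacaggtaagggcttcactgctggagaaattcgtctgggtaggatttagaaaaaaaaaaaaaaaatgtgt
Psat1: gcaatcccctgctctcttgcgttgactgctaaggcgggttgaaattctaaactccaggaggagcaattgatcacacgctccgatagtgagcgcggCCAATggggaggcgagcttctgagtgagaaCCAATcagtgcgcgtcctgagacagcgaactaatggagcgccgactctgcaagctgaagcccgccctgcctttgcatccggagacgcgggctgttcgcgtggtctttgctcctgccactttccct
Shmt1: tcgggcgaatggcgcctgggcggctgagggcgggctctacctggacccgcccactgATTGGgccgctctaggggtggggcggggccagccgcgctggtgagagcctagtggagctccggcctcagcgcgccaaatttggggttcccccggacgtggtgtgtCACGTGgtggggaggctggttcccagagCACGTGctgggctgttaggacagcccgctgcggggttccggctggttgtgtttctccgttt
Mthfd1l: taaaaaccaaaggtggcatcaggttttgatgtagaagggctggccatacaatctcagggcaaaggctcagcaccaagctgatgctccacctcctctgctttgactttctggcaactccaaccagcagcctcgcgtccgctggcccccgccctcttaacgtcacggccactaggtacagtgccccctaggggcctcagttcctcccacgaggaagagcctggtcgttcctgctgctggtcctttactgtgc
Of the 9 members, 7 were matched to such a sequence, and Mthfd1 and Aldh1l2 are named only. CACGTG was found in 1 of the 7, Shmt1, which held it in 2 places, against 5.59% of all 33469 promoters of that length. CCAAT was found in 4 of the 7 (Phgdh, Psat1, Shmt1 and Mthfd2, which held 3 matches), against 34.0% of all promoters. TGATGNAA was found in 0 of the 7 and in 3.40% of all promoters. No match overlapped another. These are matches of letters in a window and say nothing about binding.

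All 9 genes were expressed in every library, and their levels differed widely. Shmt2 was the most abundant in each group, with group means of 38.6 to 108 FPKM, and Shmt1 was the lowest or among the lowest, with 4.11 to 9.03 FPKM. All 9 passed the filter on low values in each fit (at least 1 FPKM in at least 3 libraries). KO SSt had the highest mean of the 6 groups for Psat1, Shmt1, Mthfd1, Shmt2, Mthfd2 and Mthfd1l, and in each of these 6 genes its libraries lay above those of the next group. For Phgdh, Psph and Aldh1l2 the highest mean was in KO FBS, and its libraries overlapped those of the next group.

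**Figure D1:**
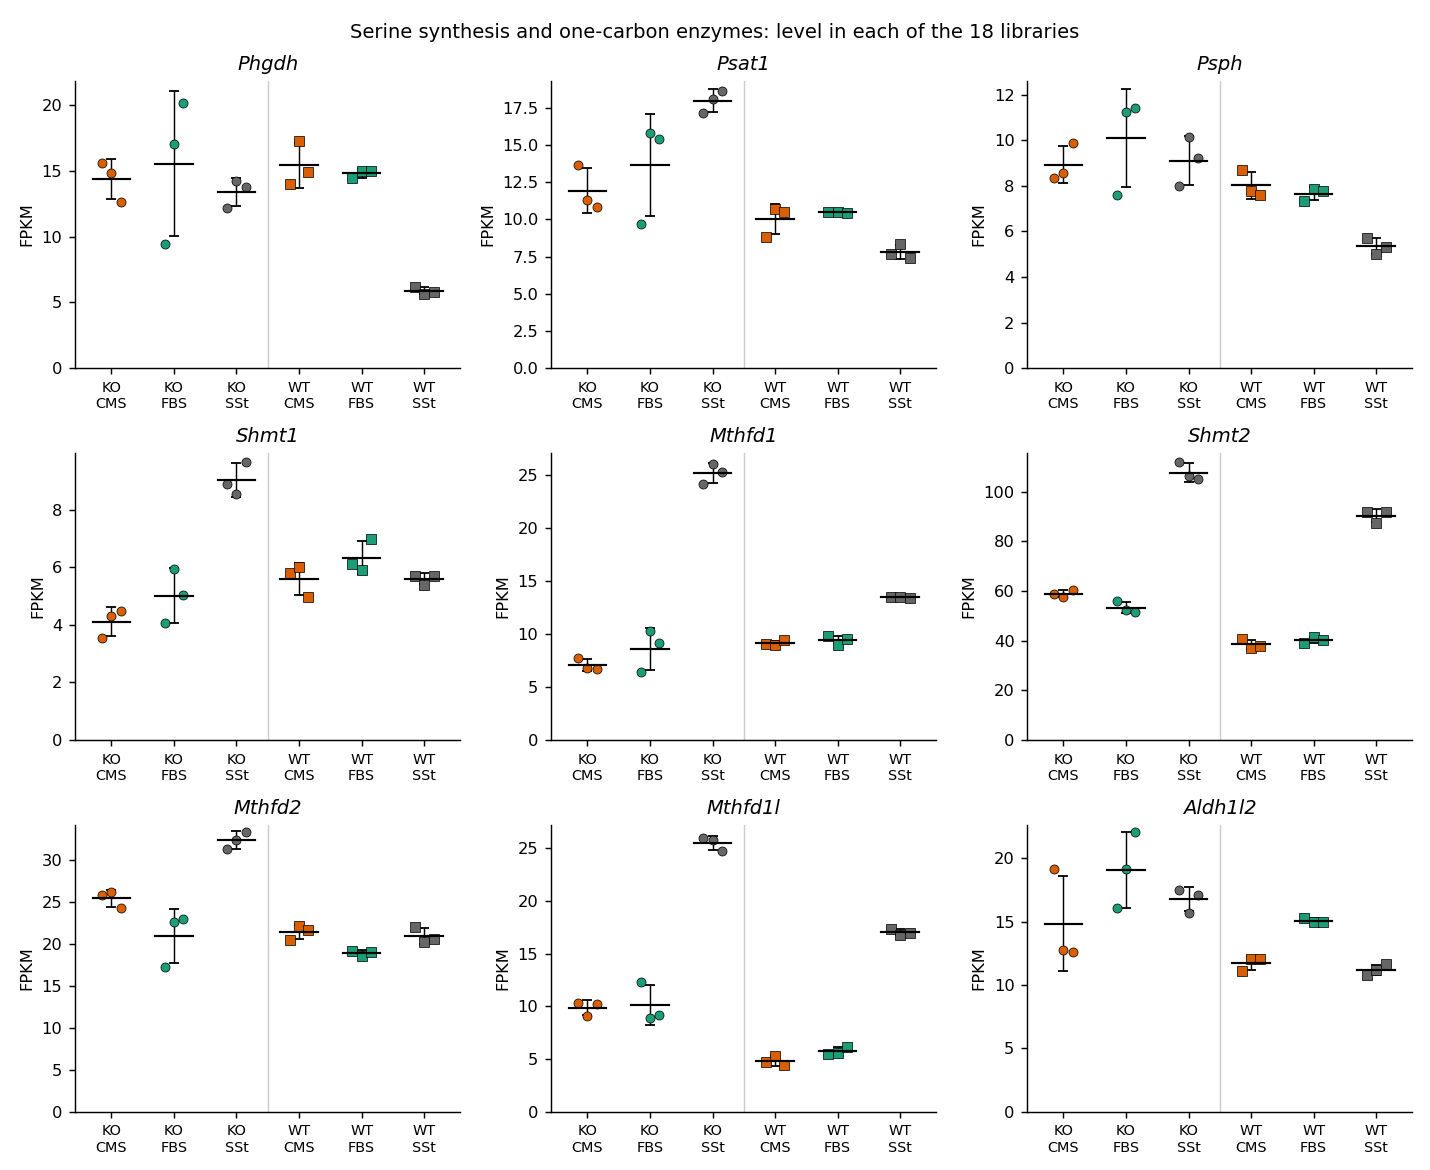
FPKM of each enzyme (y axes, linear from 0) in the 18 libraries, with KO groups as circles left of WT groups as squares. Points are libraries, horizontal lines are means and bars are SDs (n = 3); WT SSt lies lowest for Phgdh (5.64 to 6.18 FPKM), while both SSt groups lie highest for Shmt2, Mthfd1 and Mthfd1l.

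The question of the treatment comparison was what stretch and serum change in starved cells. In WT cells the serine synthesis enzymes rose with both treatments while the mitochondrial enzymes Shmt2 and Mthfd1l fell. A gene passed at an adjusted p under 0.05 (edgeR quasi-likelihood test, Benjamini-Hochberg over all genes tested) and was called if it also changed at least 2-fold. Of the 9 members, 6 passed in WT CMS over WT SSt (3 higher, 3 lower) and 3 were called, where 66.8% of all 12916 genes tested passed (34.6% higher and 32.3% lower) and 16.7% were called. In WT FBS over WT SSt, 8 passed (4 higher, 4 lower) and 3 were called, where 66.4% of all genes passed (33.7% higher and 32.7% lower) and 16.1% were called. These 2 comparisons share the WT SSt libraries. The members' median log2 fold change was 0.00 in WT CMS and 0.14 in WT FBS, beside 0.02 and 0.01 over all genes tested.

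In KO cells no member passed as higher, and both cytosolic and 3 of the 4 mitochondrial enzymes were lower with each treatment, Aldh1l2 being the exception. In KO CMS over KO SSt, 6 members passed, all lower, and 3 were called, where 61.5% of 12888 genes passed (30.8% higher and 30.7% lower) and 19.2% were called. In KO FBS over KO SSt, 5 members passed, all lower, and 2 were called, where 59.8% of all genes passed (30.3% higher and 29.5% lower) and 17.1% were called. The count of members higher was 0 in both comparisons with edgeR, also at an unadjusted p under 0.05, and 0 with DESeq2 and with limma. Without KO FBS replicate 1, however, Phgdh and Psph passed as higher in KO FBS, and 7 members passed in all, where 59% of all genes did. The members' median log2 fold change was -0.48 in KO CMS and -0.57 in KO FBS, beside 0.00 and 0.02 over all genes, and -0.46 in KO FBS without that library. Both comparisons share the KO SSt libraries.

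**Figure D2:**
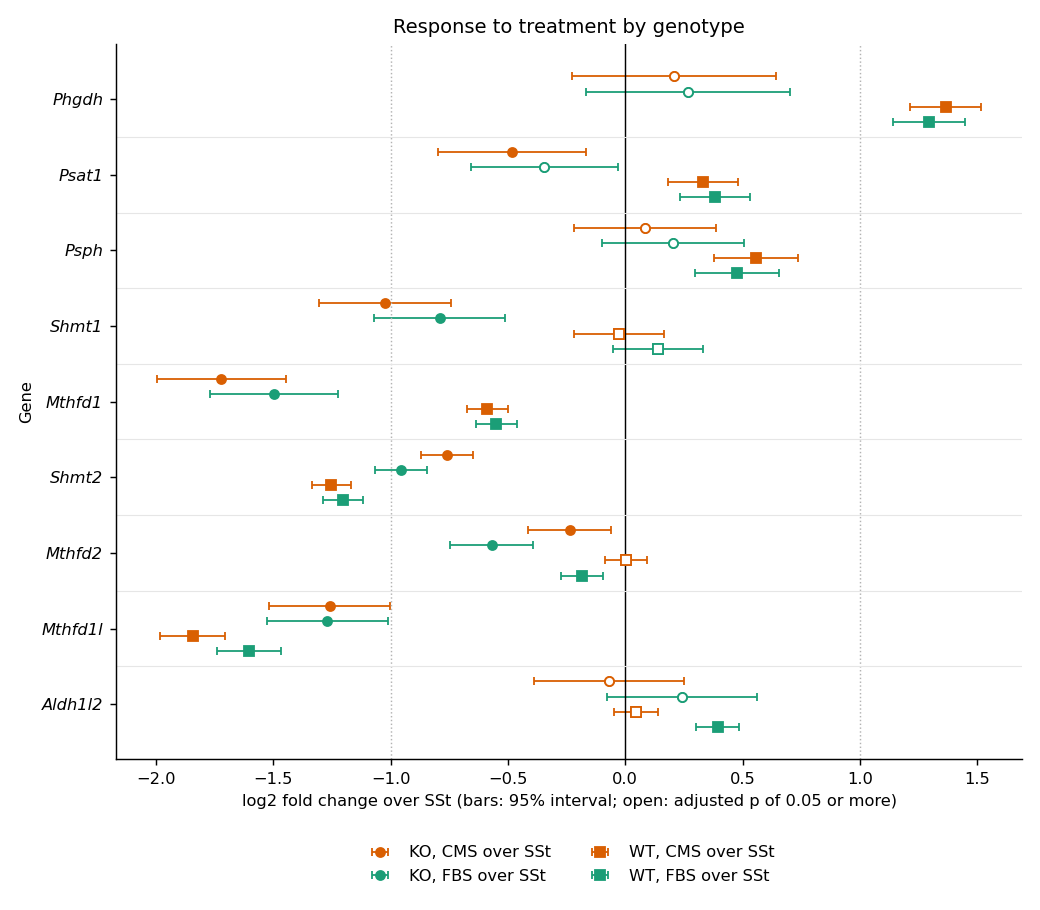
log2 fold change of each enzyme over SSt (x axis), for KO (circles) and WT (squares) under CMS (orange) and FBS (green), with 95% intervals. Open marks did not reach an adjusted p under 0.05 and dotted lines mark a 2-fold change: Phgdh lies beyond 2-fold in WT (1.37 and 1.30) but at 0.21 and 0.27 in KO, and Mthfd1 lies lower in KO (-1.72 and -1.50) than in WT (-0.59 and -0.55).

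Phgdh, the enzyme that commits carbon to serine, changed most among the synthesis enzymes in WT, whereas in KO only Psat1 passed, and only with CMS. In KO cells it had 15.6, 14.8 and 12.7 FPKM under CMS and 9.47, 17.0 and 20.2 FPKM under FBS, against 12.2, 14.2 and 13.8 FPKM in SSt. In WT cells it had 14.0, 17.3 and 14.9 FPKM under CMS and 14.4, 15.02 and 14.97 FPKM under FBS, against 6.18, 5.64 and 5.82 FPKM in SSt. Thus the WT SSt libraries lay below all 15 others, and the 3 KO groups overlapped each other. The WT rise was 2.58-fold with CMS (log2 1.37 ± 0.08, SE, adjusted p = 1.53e-07) and 2.45-fold with FBS (1.30 ± 0.08, adjusted p = 2.31e-07). In KO the log2 fold change was 0.21 with CMS (95% interval -0.23 to 0.64, adjusted p = 0.440) and 0.27 with FBS (-0.17 to 0.70, adjusted p = 0.327). The KO FBS value depended on single libraries: the log2 fold change of Phgdh was 0.51 (adjusted p = 0.00374) without replicate 1 and 0.05 (adjusted p = 0.871) without replicate 3.

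Psat1, the aminotransferase that follows, rose in treated WT cells and fell in KO cells under CMS. It had 13.7, 11.3 and 10.8 FPKM in KO CMS and 9.68, 15.8 and 15.4 FPKM in KO FBS, against 17.2, 18.1 and 18.7 FPKM in KO SSt. In WT it had 8.84, 10.7 and 10.5 FPKM under CMS and 10.5, 10.5 and 10.4 FPKM under FBS, against 7.70, 8.37 and 7.44 FPKM in SSt. SSt was therefore the highest KO group and the lowest WT group, without overlap in either genotype. Psat1 fell in KO CMS by 0.48 on the log2 scale (adjusted p = 0.0273). In KO FBS its log2 fold change was -0.34 (approximate 95% interval -0.66 to -0.03, unadjusted p = 0.0610, adjusted p = 0.0933). The KO CMS value no longer passed without KO CMS replicate 2 or 3 or KO SSt replicate 2 or 3, with an adjusted p of up to 0.0882. In WT, Psat1 rose by log2 0.33 ± 0.08 with CMS (adjusted p = 0.00324) and 0.38 ± 0.08 with FBS (adjusted p = 0.00131).

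Psph, which releases free serine, rose in WT by less than Phgdh. Its levels were 8.34, 8.59 and 9.87 FPKM in KO CMS and 7.62, 11.3 and 11.4 FPKM in KO FBS, against 7.98, 10.2 and 9.21 FPKM in KO SSt. Its WT levels were 8.72, 7.78 and 7.59 FPKM under CMS and 7.35, 7.86 and 7.77 FPKM under FBS, against 5.73, 5.03 and 5.34 FPKM in SSt. The KO groups overlapped, and WT SSt lay below every other library. Psph rose in WT by log2 0.56 ± 0.09 with CMS (adjusted p = 0.000375) and 0.48 ± 0.09 with FBS (adjusted p = 0.00104). In KO its log2 fold change was 0.08 with CMS (95% interval -0.22 to 0.39) and 0.20 with FBS (-0.10 to 0.51), and the FBS value became 0.35 (adjusted p = 0.0288) without KO FBS replicate 1.

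Among the cytosolic enzymes, Mthfd1, which carries formate into the folate pool used for purines, fell in both genotypes and further in KO. It had 7.70, 6.81 and 6.68 FPKM in KO CMS and 6.38, 10.2 and 9.09 FPKM in KO FBS, against 24.1, 26.0 and 25.3 FPKM in KO SSt. In WT it had 9.002, 8.92 and 9.39 FPKM under CMS and 9.76, 8.95 and 9.53 FPKM under FBS, against 13.5, 13.5 and 13.4 FPKM in SSt. The SSt libraries of each genotype lay above all treated libraries of either genotype. The fall was 3.30-fold in KO CMS (log2 -1.72 ± 0.14, adjusted p = 9.62e-06) and 2.83-fold in KO FBS (-1.50 ± 0.14, adjusted p = 2.77e-05), beside 1.504-fold in WT CMS (-0.59 ± 0.04, adjusted p = 1.25e-06) and 1.46-fold in WT FBS (-0.55 ± 0.04, adjusted p = 2.06e-06).

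Shmt1, the cytosolic serine hydroxymethyltransferase, fell in treated KO cells and did not pass in treated WT cells. It had 3.53, 4.32 and 4.47 FPKM in KO CMS and 4.05, 5.94 and 5.05 FPKM in KO FBS, against 8.88, 8.53 and 9.67 FPKM in KO SSt. WT levels were 5.81, 6.02 and 4.95 FPKM under CMS and 6.10, 5.89 and 6.97 FPKM under FBS, against 5.70, 5.38 and 5.71 FPKM in SSt. KO SSt lay above all other libraries, and the WT CMS and WT SSt libraries overlapped. Shmt1 fell by 1.02 on the log2 scale in KO CMS (adjusted p = 0.000255) and fell by 0.79 in KO FBS (adjusted p = 0.00126). With single libraries left out, the KO CMS value ran from -1.10 to -0.92, on both sides of a 2-fold fall, with an adjusted p of at most 0.00150. In WT its log2 fold change was -0.03 with CMS (95% interval -0.22 to 0.17) and 0.14 with FBS (-0.05 to 0.33).

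Of the mitochondrial enzymes, Shmt2 and Mthfd1l fell with each treatment in each genotype. Shmt2, the main source of glycine and of mitochondrial carbon units, had 58.8, 57.7 and 60.3 FPKM in KO CMS and 55.9, 52.3 and 51.7 FPKM in KO FBS, against 112, 106 and 105 FPKM in KO SSt. Its WT levels were 40.6, 37.1 and 37.97 FPKM under CMS and 39.1, 41.4 and 40.2 FPKM under FBS, against 91.9, 87.3 and 92.0 FPKM in SSt. No treated library reached the level of an SSt library of either genotype. The log2 fold change was -0.76 ± 0.06 in KO CMS (adjusted p = 5.58e-06) and -0.95 ± 0.06 in KO FBS (adjusted p = 2.15e-06), beside -1.25 ± 0.04 in WT CMS (adjusted p = 4.05e-09) and -1.20 ± 0.04 in WT FBS (adjusted p = 5.44e-09). The WT changes exceeded 2-fold, and the KO FBS change did so without KO FBS replicate 1 (-1.01).

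Mthfd1l, the synthetase that releases formate from mitochondria, had the largest fall of the 4 mitochondrial genes. It had 10.3, 9.06 and 10.2 FPKM in KO CMS and 12.3, 8.86 and 9.18 FPKM in KO FBS, against 25.9, 25.8 and 24.7 FPKM in KO SSt. In WT it had 4.75, 5.31 and 4.40 FPKM under CMS and 5.503, 5.57 and 6.15 FPKM under FBS, against 17.4, 16.8 and 16.9 FPKM in SSt. Treated WT libraries were the lowest, treated KO libraries came next, and the SSt groups were the highest. The fall was 2.39-fold in KO CMS (log2 -1.26 ± 0.13, adjusted p = 4.28e-05) and 2.41-fold in KO FBS (-1.27 ± 0.13, adjusted p = 5.09e-05), beside 3.59-fold in WT CMS (-1.84 ± 0.07, adjusted p = 8.74e-09) and 3.04-fold in WT FBS (-1.60 ± 0.07, adjusted p = 2.26e-08).

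Mthfd2, the dehydrogenase between Shmt2 and Mthfd1l in the mitochondrial chain, changed far less than either neighbour. It had 25.8, 26.2 and 24.3 FPKM in KO CMS and 17.3, 22.6 and 23.0 FPKM in KO FBS, against 31.3, 32.5 and 33.4 FPKM in KO SSt. Its WT levels were 20.5, 22.2 and 21.7 FPKM under CMS and 19.2, 18.6 and 19.1 FPKM under FBS, against 22.1, 20.3 and 20.6 FPKM in SSt. KO SSt lay above all other groups, and WT CMS and WT SSt overlapped. Mthfd2 fell by 0.57 on the log2 scale in KO FBS (adjusted p = 0.000595) and by 0.18 in WT FBS (adjusted p = 0.00521). In KO CMS the log2 fold change was -0.24 (adjusted p = 0.0445), which no longer passed without any 1 of the 6 libraries compared (adjusted p 0.0636 to 0.126), and in WT CMS it was 0.00 (95% interval -0.08 to 0.09).

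Aldh1l2, which oxidises the formyl unit to CO2 and yields NADPH, rose with serum in WT. It had 19.1, 12.8 and 12.6 FPKM in KO CMS and 16.0, 19.1 and 22.0 FPKM in KO FBS, against 17.5, 15.7 and 17.1 FPKM in KO SSt. WT levels were 11.1, 12.1 and 12.0 FPKM under CMS and 15.3, 14.9 and 14.97 FPKM under FBS, against 10.8, 11.2 and 11.6 FPKM in SSt. The KO groups overlapped, and KO CMS replicate 1 lay well above the other KO CMS libraries. Aldh1l2 rose by log2 0.39 ± 0.05 in WT FBS (adjusted p = 4.14e-05), and its log2 fold change was 0.04 in WT CMS (95% interval -0.05 to 0.14), 0.24 in KO FBS (-0.08 to 0.56) and -0.07 in KO CMS (-0.39 to 0.25).

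Stretch and serum were also compared with each other. In KO CMS over KO FBS, 1 member passed and 0 were called, where 14.8% of all genes passed and 2.61% were called. In WT CMS over WT FBS, 2 members passed and 0 were called, where 8.94% passed and 0.217% were called. At an unadjusted p under 0.05, 2 members in KO and 3 in WT were past the limit without a 2-fold change, and DESeq2 and limma also called 0 in each. Mthfd2 was higher under CMS in both genotypes, by log2 0.33 ± 0.09 in KO (adjusted p = 0.0405) and 0.19 ± 0.05 in WT (adjusted p = 0.0349). The KO value no longer passed without KO FBS replicate 2 or any KO CMS library (adjusted p up to 0.1204), and the WT value without any library but WT CMS replicate 1 (up to 0.109). The KO value also did not pass with limma at any pseudocount used, upper-quartile scaling or library totals. With the replicate number as a block or the compared groups alone, neither the KO value nor the WT value passed. Aldh1l2 was lower under CMS in WT, by log2 -0.35 ± 0.05 (adjusted p = 0.00266), and its KO value was -0.31 (95% interval -0.63 to 0.01), which became -0.53 (adjusted p = 0.0242) without KO CMS replicate 1. Without KO FBS replicate 1, 4 members passed in KO: Psat1 (-0.32), Mthfd1 (-0.38), Shmt2 (0.25) and Mthfd2 (0.23), while the share of all genes that passed was 24.5%. The WT value of Mthfd1l was -0.24 (adjusted p = 0.0626), and without WT CMS replicate 2 it was -0.32 (adjusted p = 0.0235).

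The genotype comparison asked what the loss of miR-337 changes within each treatment, in a fit of all 18 libraries. Under starvation all 9 members were higher in KO. In KO SSt over WT SSt, 9 of 9 passed as higher and 2 were called, where 47.4% of 13317 genes passed (24.2% higher and 23.2% lower) and 7.32% were called. The members' median log2 fold change was 0.62, beside 0.02 over all genes. Psat1 was 2.18-fold higher in KO SSt (log2 1.13 ± 0.14, adjusted p = 8.97e-06) and Phgdh 2.16-fold higher (1.11 ± 0.18, adjusted p = 0.000140). Mthfd1 followed with log2 0.83 ± 0.11 (adjusted p = 1.64e-05), Psph with 0.69 ± 0.13 (adjusted p = 0.000479) and Shmt1 with 0.62 ± 0.12 (adjusted p = 0.000835). The mitochondrial genes differed less: 0.55 ± 0.07 for Mthfd2, 0.51 ± 0.13 for Aldh1l2, 0.51 ± 0.11 for Mthfd1l and 0.18 ± 0.05 for Shmt2, with adjusted p between 1.91e-05 and 0.00782. For each of the 9 genes, every KO SSt library lay above every WT SSt library, and leaving out any 1 of these 6 libraries left each adjusted p at or under 0.0389.

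**Figure D3:**
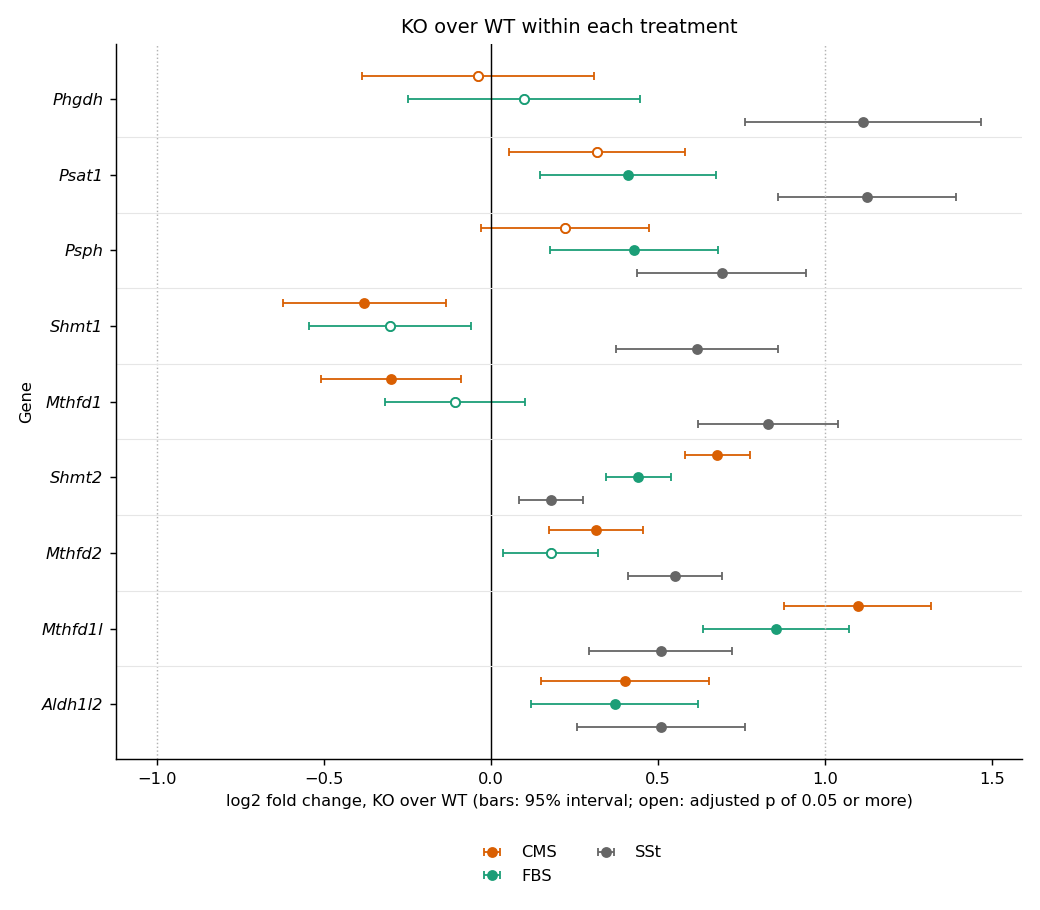
log2 fold change of KO over WT (x axis) for each enzyme under CMS (orange), FBS (green) and SSt (grey), with 95% intervals; open marks did not reach an adjusted p under 0.05 and dotted lines mark a 2-fold change. All 9 grey points lie right of 0 (0.18 to 1.13), and under CMS only the cytosolic genes Shmt1 (-0.38) and Mthfd1 (-0.30) passed to the left of 0.

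Under stretch and serum Mthfd1l and Shmt2 were higher in KO. In KO CMS over WT CMS, 6 members passed (4 higher, 2 lower) and 1 was called, where 39.7% of all genes passed and 8.31% were called. In KO FBS over WT FBS, 5 passed, all higher, and 0 were called, where 25.7% passed and 4.02% were called. At an unadjusted p under 0.05 the FBS count was 7, without a 2-fold change in any of them, and DESeq2 and limma also called 0. DESeq2 passed 5 members under FBS, where it passed 3707 of 13317 genes. Only 2 members passed there with limma at a pseudocount of 1, where it passed 3444 of 13317 genes. Mthfd1l was higher in KO by log2 1.10 ± 0.11 under CMS (adjusted p = 3.07e-06) and 0.85 ± 0.11 under FBS (adjusted p = 5.35e-05). Shmt2 was higher by 0.68 ± 0.05 under CMS (adjusted p = 1.29e-07) and 0.44 ± 0.05 under FBS (adjusted p = 1.42e-05). Mthfd2 was higher under CMS by 0.31 ± 0.07 (adjusted p = 0.00286), with 0.18 (95% interval 0.04 to 0.32, adjusted p = 0.0859) under FBS. Aldh1l2 was higher by 0.40 ± 0.13 under CMS (adjusted p = 0.0215), which no longer passed without WT CMS replicate 1 or KO CMS replicate 1 (adjusted p up to 0.112).

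Of the synthesis enzymes, Phgdh did not pass in either treatment. It differed by log2 -0.04 under CMS (95% interval -0.39 to 0.31) and 0.10 under FBS (-0.25 to 0.44). Psat1 and Psph were higher in KO FBS by 0.41 ± 0.13 (adjusted p = 0.0358) and 0.43 ± 0.13 (adjusted p = 0.0234), and under CMS their differences of 0.32 and 0.22 did not pass. Those FBS values, and that of Aldh1l2 (0.37 ± 0.13, adjusted p = 0.0453), no longer passed without any 1 of the 6 libraries compared except KO FBS replicate 1 (adjusted p up to 0.168). Without KO FBS replicate 1, the FBS differences were 0.34 for Phgdh (adjusted p = 0.0260), 0.59 for Psat1, 0.58 for Psph, 0.46 for Aldh1l2, 0.38 for Shmt2, 0.66 for Mthfd1l and 0.28 for Mthfd2 (adjusted p = 0.000710), and 7 members passed, where 22.3% of all genes did. The cytosolic enzymes were lower in KO CMS, Shmt1 by log2 -0.38 ± 0.12 (adjusted p = 0.0245) and Mthfd1 by -0.30 ± 0.11 (adjusted p = 0.0364). The Shmt1 value no longer passed without WT CMS replicate 1 or 2 or KO CMS replicate 1 (up to 0.107), and the Mthfd1 value without any library but KO CMS replicate 1 (up to 0.121). Under FBS their differences were -0.30 for Shmt1 (95% interval -0.55 to -0.06, adjusted p = 0.0886) and -0.11 for Mthfd1 (-0.32 to 0.10). The Shmt1 value passed without KO FBS replicate 2 (-0.43, adjusted p = 0.0226). Without KO FBS replicate 1 neither passed, at -0.19 for Shmt1 (adjusted p = 0.316) and 0.05 for Mthfd1 (adjusted p = 0.661).

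Whether the responses to treatment differed between the genotypes was tested as an interaction, the KO response minus the WT response. For the CMS response 7 of 9 members passed and 2 were called, where 44.8% of all genes passed and 13.4% were called. For the FBS response 6 passed and 1 was called, where 35.7% passed and 8.97% were called. Phgdh rose less in KO, by a log2 difference of -1.15 ± 0.25 for CMS (adjusted p = 0.00167) and -1.02 ± 0.25 for FBS (adjusted p = 0.00567). Mthfd1 fell further in KO, by -1.13 ± 0.15 for CMS (adjusted p = 2.75e-05) and -0.94 ± 0.15 for FBS (adjusted p = 0.000245). Shmt1 differed by -0.99 ± 0.18 for CMS (adjusted p = 0.000304) and -0.92 ± 0.18 for FBS (adjusted p = 0.000922), just short of 2-fold. Psat1 differed by -0.81 ± 0.19 for CMS (adjusted p = 0.00280) and -0.72 ± 0.19 for FBS (adjusted p = 0.00862). The FBS value of Phgdh ran from -1.24 to -0.77 with single libraries left out, and was -0.77 (adjusted p = 0.000643) without KO FBS replicate 1, less than 2-fold.

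Shmt2, with both treatments, and Mthfd1l, with CMS, fell less in KO, and the other mitochondrial genes did not share this sign. The interaction was 0.50 ± 0.07 for Shmt2 with CMS (adjusted p = 4.38e-05) and 0.26 ± 0.07 with FBS (adjusted p = 0.00921). The FBS value of Shmt2 no longer passed with library totals or with limma at any pseudocount used (adjusted p up to 0.0890). For Mthfd1l it was 0.59 ± 0.16 with CMS (adjusted p = 0.00605) and 0.35 with FBS (95% interval 0.04 to 0.65, adjusted p = 0.0980). The FBS value of Mthfd1l passed without KO FBS replicate 2 (0.44, adjusted p = 0.0307). Without KO FBS replicate 1 it was 0.16 and did not pass (adjusted p = 0.254). The CMS value of Mthfd1l was 0.13 with limma at a pseudocount of 5 and did not pass there (adjusted p = 0.272). Mthfd2 differed by -0.37 ± 0.10 for FBS (adjusted p = 0.0102) and -0.24 for CMS (95% interval -0.44 to -0.04, adjusted p = 0.0704). Psph differed by -0.47 ± 0.18 for CMS (adjusted p = 0.0475), which no longer passed without any 1 of 9 of the 12 libraries (adjusted p up to 0.118; the exceptions were WT SSt replicate 1, KO CMS replicate 3 and KO SSt replicate 1), and by -0.26 (95% interval -0.62 to 0.09) for FBS. Aldh1l2 differed by -0.11 (-0.46 to 0.25) for CMS and -0.14 (-0.49 to 0.21) for FBS, and the CMS value was -0.33 (adjusted p = 0.0358) without KO CMS replicate 1.

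Since FPKM is scaled to length, the enzymes of a compartment were also summed within each library. The 3 synthesis enzymes summed to 35.2 ± 2.14 FPKM in KO CMS, 39.3 ± 10.9 in KO FBS and 40.5 ± 2.77 in KO SSt, and to 33.5 ± 2.16 in WT CMS, 32.9 ± 0.610 in WT FBS and 19.1 ± 0.509 in WT SSt (SD, n = 3). The 4 mitochondrial enzymes summed to 109 ± 4.37 FPKM in KO CMS, 103 ± 2.26 in KO FBS and 182 ± 3.73 in KO SSt, and to 76.6 ± 0.436 in WT CMS, 80.0 ± 0.781 in WT FBS and 140 ± 3.55 in WT SSt. The cytosolic pair summed to 11.2 ± 0.0537 FPKM in KO CMS, 13.6 ± 2.91 in KO FBS and 34.2 ± 1.01 in KO SSt, and to 14.7 ± 0.315 in WT CMS, 15.7 ± 0.838 in WT FBS and 19.0 ± 0.162 in WT SSt. WT SSt was thus the lowest group for synthesis and the second highest for both folate compartments. The balance of the enzymes shifted accordingly: the ratio of Phgdh to Shmt2 was 0.210 to 0.265 in KO CMS and 0.169 to 0.390 in KO FBS, against 0.109 to 0.134 in KO SSt, and 0.346 to 0.466 in WT CMS and 0.363 to 0.372 in WT FBS, against 0.0633 to 0.0672 in WT SSt. The ratio of Mthfd2 to Mthfd1l was 2.39 to 2.90 in KO CMS and 1.41 to 2.56 in KO FBS, against 1.21 to 1.35 in KO SSt, and 4.17 to 4.93 in WT CMS and 3.10 to 3.49 in WT FBS, against 1.21 to 1.27 in WT SSt. For both ratios treated libraries lay above the SSt libraries of their genotype without overlap. Shmt2 exceeded Shmt1 by 13.4 to 16.7 times in KO CMS and 8.80 to 13.8 times in KO FBS, against 10.9 to 12.6 times in KO SSt, and by 6.17 to 7.67 times in WT CMS and 5.77 to 7.03 times in WT FBS, against 16.1 to 16.2 times in WT SSt.

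**Figure D4:**
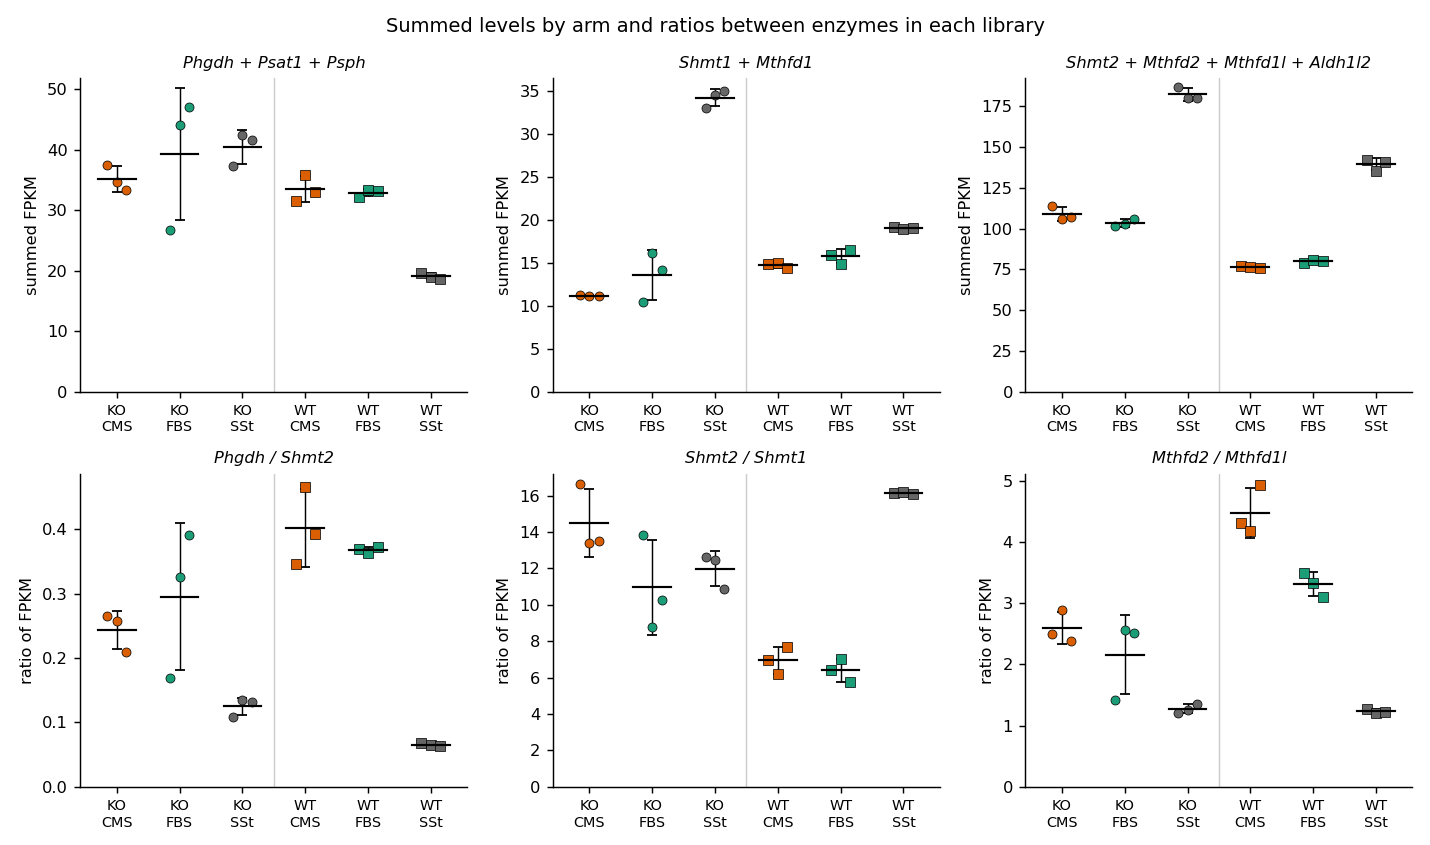
Summed FPKM of the synthesis, cytosolic and mitochondrial enzymes (top row) and ratios of FPKM between enzymes (bottom row) in each library, KO (circles) left of WT (squares), with means and SDs (n = 3). WT SSt has the lowest synthesis sum (18.6 to 19.6) and the highest mean ratio of Shmt2 to Shmt1 (16.2).

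Other folate genes moved in both directions. The counts of this and the next lists stand beside 30.8% of all genes higher and 30.7% lower in KO CMS, 30.3% and 29.5% in KO FBS, 34.6% and 32.3% in WT CMS, and 33.7% and 32.7% in WT FBS. Of 14 listed folate enzymes and carriers, 12 were tested, of which 3 rose and 2 fell in KO CMS, 4 rose and 3 fell in KO FBS, 4 rose and 3 fell in WT CMS and 4 rose and 4 fell in WT FBS. Aldh1l1, the cytosolic counterpart of Aldh1l2, rose strongly: it had 4.77, 4.63 and 4.01 FPKM in KO CMS and 5.67, 4.86 and 6.62 in KO FBS, against 0.875, 0.825 and 0.984 in KO SSt. In WT it had 2.76, 3.05 and 3.08 FPKM under CMS and 3.88, 3.65 and 3.94 under FBS, against 1.22, 1.25 and 1.37 in SSt. Its log2 fold change was 2.43 ± 0.14 in KO CMS, 2.73 ± 0.14 in KO FBS, 1.19 ± 0.10 in WT CMS and 1.54 ± 0.10 in WT FBS. Mthfd2l, the close relative of Mthfd2, fell in WT by log2 -1.28 ± 0.22 with CMS and -1.07 ± 0.21 with FBS, and in KO its values were -0.12 and -0.45 and did not pass. Ggh, which trims folate polyglutamates, rose in WT (1.15 with CMS and 0.88 with FBS).

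Of 8 serine and glycine carriers tested, 5 rose and 3 fell in KO CMS, 3 rose and 2 fell in KO FBS, 5 rose and 2 fell in WT CMS and 4 rose and 2 fell in WT FBS. Slc6a9, a glycine transporter of the plasma membrane, had 61.2, 76.0 and 69.8 FPKM in KO CMS and 34.3, 31.5 and 30.7 in KO FBS, against 7.88, 8.11 and 7.47 in KO SSt. Its WT levels were 43.4, 45.0 and 45.2 FPKM under CMS and 27.9, 26.2 and 28.3 under FBS, against 9.43, 10.1 and 11.1 in SSt, so that stretch, serum and starvation formed 3 separate levels in each genotype. Sfxn1, which imports serine into mitochondria, fell in each comparison (log2 -0.54 in KO CMS, -0.64 in KO FBS, -1.06 in WT CMS and -1.01 in WT FBS). Of 4 glycine cleavage and serine breakdown genes tested, 1 rose and 1 fell in KO CMS, 2 rose and 1 fell in KO FBS, 2 rose and 2 fell in WT CMS and 1 rose and 2 fell in WT FBS. Amt, the aminomethyltransferase of glycine cleavage, rose in WT (1.12 with CMS and 1.18 with FBS). Of 7 methionine cycle genes tested, 1 rose and 5 fell in each KO comparison, 2 rose and 4 fell in WT CMS and 1 rose and 4 fell in WT FBS. Ahcyl1, a relative of the adenosylhomocysteine hydrolase, was the only one called in WT (-1.12 with CMS and -1.38 with FBS).

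Purine and thymidylate synthesis consumes carbon units. Of 12 purine and thymidylate synthesis genes tested, a list that also holds Shmt1, 9 fell and 1 rose in KO CMS (median log2 fold change -0.89), 11 fell in KO FBS (-0.79), 7 fell and 3 rose in WT CMS (-0.23) and 7 fell and 1 rose in WT FBS (-0.18). In KO SSt over WT SSt, 11 of the 12 were higher (median 0.38), where 24.2% of all genes were. In KO CMS over WT CMS 5 were higher and 4 lower, where 18.7% and 21% of all genes were. Tyms, the thymidylate synthase, chosen after its values were seen, had log2 fold changes of -1.97 in KO CMS and -1.06 in KO FBS, both past the test. In WT its values were 0.07 with CMS and 0.14 with FBS and did not pass.

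The 8 markers of dividing cells all fell in each of the 4 comparisons with SSt, with a median log2 fold change of -3.13 in KO CMS, -1.84 in KO FBS, -0.86 in WT CMS and -0.66 in WT FBS. Mki67, a marker of cycling cells, had 5.14, 3.84 and 3.49 FPKM in KO CMS and 5.06, 14.8 and 17.1 in KO FBS, against 37.3, 44.2 and 44.7 in KO SSt. In WT it had 23.3, 21.4 and 22.4 FPKM under CMS and 21.2, 22.7 and 22.2 under FBS, against 24.2, 25.3 and 26.1 in SSt. KO SSt thus held the highest Mki67 and treated KO cells the lowest, with KO FBS replicate 1 at the level of KO CMS. In KO SSt over WT SSt 7 of the 8 markers were higher (median 0.76), where 24.2% of all genes were. Ccnb1, Cdk1, Top2a and Mcm2, called in WT CMS, fell there by -1.43, -1.26, -1.22 and -1.09, and in KO CMS by -3.92, -3.94, -3.92 and -2.19. The enzymes that fell with these markers in all 4 comparisons were Mthfd1, Shmt2 and Mthfd1l. Mthfd2 fell in all but WT CMS, Shmt1 in KO alone and Psat1 in KO CMS. Phgdh, Psat1 and Psph were higher in the WT groups where the markers were lower. Between the SSt groups, however, Phgdh and the other members were higher in KO, as were 7 of the 8 markers. In KO CMS over WT CMS all 8 markers were lower (median -1.68), while 4 members were higher and 2 lower. Of all genes, 18.7% were higher and 21% lower there. In KO FBS over WT FBS 2 markers were lower and 0 higher (median -0.56), while 5 members were higher and 0 lower. Of all genes, 13.5% were higher and 12.3% lower there. A link between markers and members was not tested.

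ATF4 and its known targets outside the pathway were followed as a further list. Atf4 itself had 217, 230 and 229 FPKM in KO CMS and 168, 169 and 162 in KO FBS, against 106, 109 and 109 in KO SSt, and 170, 180 and 181 FPKM in WT CMS and 168, 170 and 171 in WT FBS, against 109, 116 and 114 in WT SSt. It rose with each treatment, by log2 1.17 in KO CMS, 0.68 in KO FBS, 0.63 in WT CMS and 0.55 in WT FBS. Of the 14 genes of the list, 12 rose and 2 fell in KO CMS (median 1.17), 11 rose and 1 fell in KO FBS (0.79), 7 rose and 5 fell in WT CMS (0.17) and 7 rose and 6 fell in WT FBS (0.16). Asns, asparagine synthetase, rose by 0.70 in KO CMS, 0.42 in KO FBS, 0.46 in WT CMS and 0.43 in WT FBS. In KO SSt over WT SSt, where all 9 members were higher, 3 of the 14 were higher and 9 lower (median -0.30). Of all genes tested there, 24.2% were higher and 23.2% lower. In KO CMS over WT CMS 13 of the 14 were higher and 1 lower (median 0.70), where 18.7% and 21% of all genes were. In KO FBS over WT FBS 8 were higher and 0 lower (median 0.395), where 13.5% and 12.3% of all genes were. The part of ATF4 in the members' levels was not tested. Slc7a11, the cystine carrier, had 6.89, 6.90 and 6.24 FPKM in KO SSt, against 50.3, 57.6 and 66.1 in WT SSt (log2 -3.19 ± 0.22, adjusted p = 4.23e-08). Ddit4 was lower as well (-1.10), Vldlr was lower by -0.31, and Stc2 was higher (0.76).

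**Figure D5:**
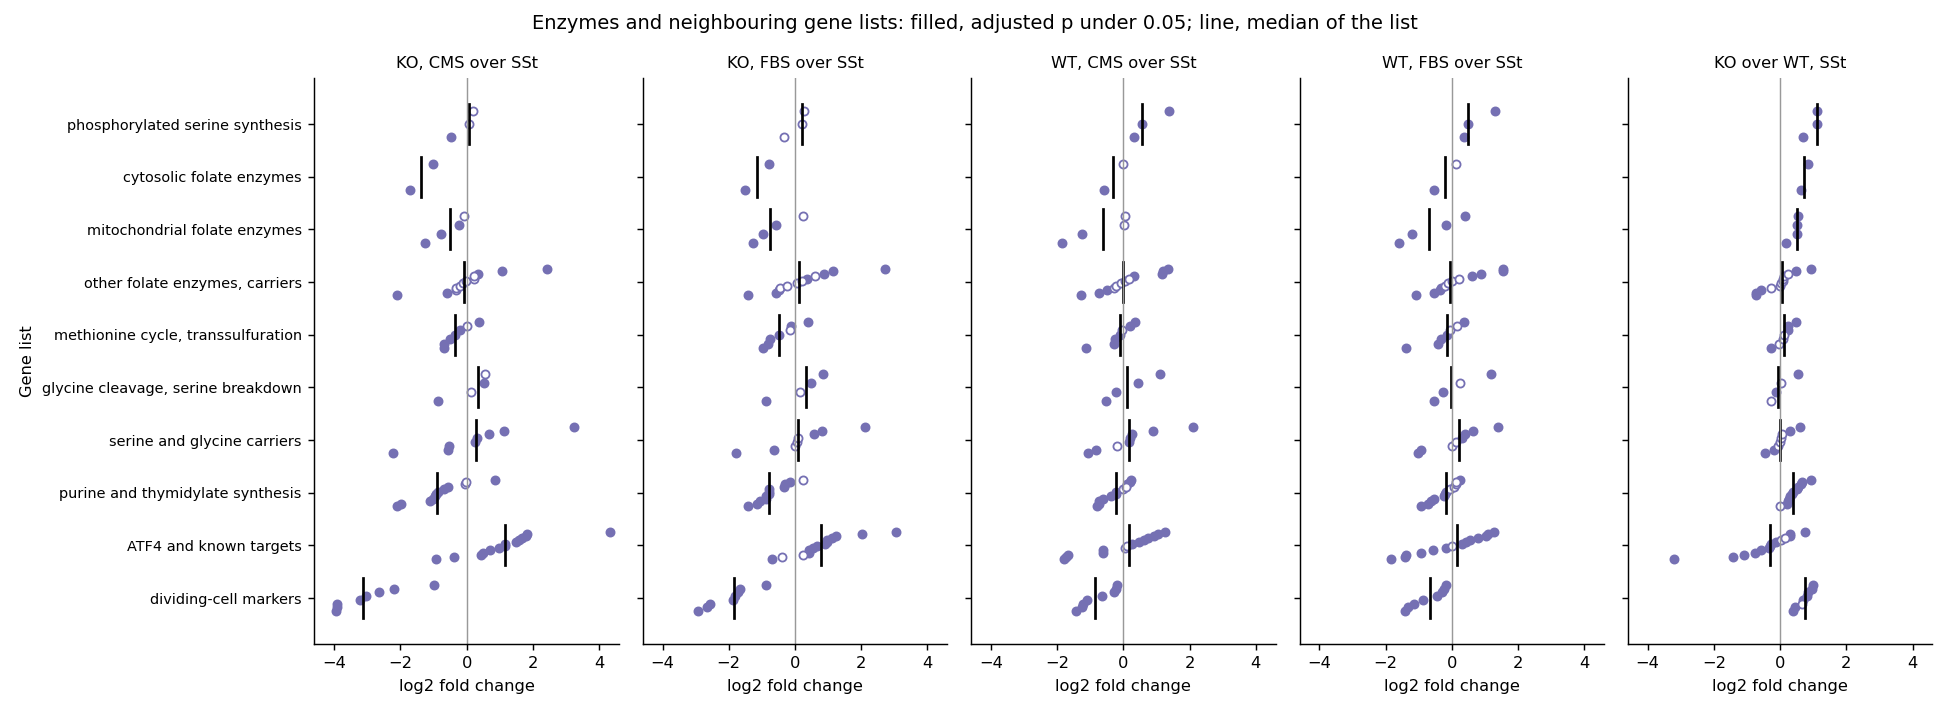
log2 fold change (x axes) of each tested gene of the members' 3 groups and of 7 neighbouring lists (rows), for 5 comparisons (panels). Filled points had an adjusted p under 0.05 and black lines are medians: the dividing-cell markers lie left of 0 in the 4 treatment panels (medians -3.13 to -0.66), and in the KO over WT panel all members lie right of 0 while the ATF4 list has a median of -0.30.

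The genes with the most similar pattern over the 6 groups were sought for the 5 members whose group means spanned at least 1 log2 unit. The measure was the root mean square difference between centred group means of log2(CPM + 1). Nearest to Phgdh were Poglut3 (0.07), RGD1305298 (0.10) and Cd109 (0.13). Psat1 was nearest to Cgref1 (0.08), Sgcd (0.09) and Aida (0.09), Shmt2 to Slc6a17 (0.04), Prrx1 (0.09) and Epb41l3 (0.09), and Mthfd1 to Olah (0.05), Snrpa1 (0.06) and Tipinl1 (0.06). Mthfd1l, with the widest span of 2.29, had the least close neighbours, Hs6st2 (0.14), Syt17 (0.17) and Adora2b (0.17). Among the members themselves the closest pair was Psph and Aldh1l2 (0.16), followed by Psat1 and Psph (0.21), and the farthest was Phgdh and Mthfd1l (1.12). These are descriptions over 6 group means.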

How the data were processed

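RNA-seq of rat MSCs was deposited as a table for each genotype, with 32623 genes and 9 libraries each. The authors deposited raw, whole-number counts for every gene, and an FPKM, which they made from the counts by scaling to gene length and library total (0.0001 is written where the count is 0). Which tool and build gave the counts is not settled: Bowtie 0.12.2 and the mouse build mm10 are listed in the submitters' processing notes, but genes carry Ensembl identifiers of the rat. Coordinates from the tables were therefore left out. Upstream sequences came from RefSeq (GRCr8).

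Counts were scaled by TMM and tested with edgeR 4.0.16 (quasi-likelihood F test, R 4.3.3) after dropping genes that did not reach 1 FPKM in 3 or more of the fitted libraries. The 9 libraries of a genotype formed one fit for the treatments, and genotype differences and interactions were taken from a fit of all 18 libraries. Adjustment was by Benjamini-Hochberg across all tested genes, and SEs were derived from the F statistics. Genes other than the members were named if they were among the 4 most changed of a list and called in WT FBS or WT CMS over SSt or in KO over WT in SSt, together with Atf4, Asns, Mki67, Aldh1l1 and Mthfd2l, unless stated otherwise. Some genes that this rule names are not reported here. The script was tested on simulated data. Alternatives were DESeq2 1.42.0, limma 3.58.1 on log2(FPKM + pseudocount), other scalings and filters, no fold limit, the replicate number as a block, the compared groups alone and each library left out. The members, lists and tests were chosen with earlier results of these data known. Depth is the total count per library, and no column of per-sample values was left unused.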

Additional observations from a re-analysis of the deposited data

Results flagged for a closer look

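The responses of 2 members differed between the genotypes by more than 2-fold in the interaction test (edgeR, all 18 libraries). Phgdh had a KO response minus WT response of -1.02 on the log2 scale for FBS and -1.15 for CMS: its levels in WT SSt were the lowest of all groups, and the 3 KO groups overlapped. The FBS difference was under 2-fold without KO FBS replicate 1 (-0.77). Mthfd1 had a difference of -1.13 for CMS, with the highest levels in KO SSt and the lowest in KO CMS. Markers of dividing cells were highest in KO SSt, where Mthfd1 was highest, and higher in WT SSt than in treated WT cells, whereas Phgdh was lower in WT SSt. Their part was not tested.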

How the results depend on the processing

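Of 1791 member values recomputed, 1666 kept their side of the adjusted p limit, 100 lost it and 25 gained it. The sign changed in 38 of the 1666, all from 11 values that passed neither in the reported fit nor under the alternative (adjusted p of at least 0.514 and 0.631). Without the fold limit the counts of members called were 8 (WT FBS), 6 (WT CMS) and 2 (WT CMS over FBS), 5, 6 and 1 in KO, 9, 5 and 6 in KO over WT in SSt, FBS and CMS, and 6 and 7 for the FBS and CMS interactions. With limma at a pseudocount of 5, no member was called in KO over WT in SSt (0) or CMS (0) or in either interaction (0 and 0), and at a pseudocount of 1 the CMS count was 0, since a pseudocount shrinks folds of genes at these levels. The FBS interaction count of 1 became 2 with upper-quartile scaling and 3 with library totals or a pseudocount of 0.1, and ran from 0 to 3 with single libraries left out (0 without WT SSt replicate 2, KO FBS replicate 1 or KO SSt replicate 2 or 3, and 3 without KO FBS replicate 2); the cause was not tested. Library totals moved the median of all genes to -0.11 in KO CMS over SSt and to -0.12 and -0.19 in the FBS and CMS interactions, and upper-quartile scaling to -0.14 in the CMS interaction.

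Over all genes, 28 were called in WT CMS over FBS, against 44 without a filter, 45 with DESeq2, 16 at a minimum of 5 FPKM and 9 with limma at a pseudocount of 1, and 19 to 46 with single libraries left out (46 without WT CMS replicate 1). In KO CMS over FBS, 337 were called, against 216, 147 and 206 at a minimum of 5 FPKM, with limma and with the 2 groups alone, and 554 without KO FBS replicate 1. In KO over WT the counts of 975, 536 and 1106 in SSt, FBS and CMS became 567, 273 and 616 with limma at a pseudocount of 1 and 274, 116 and 235 at a pseudocount of 5. That pseudocount also lowered WT FBS over SSt to 678 (against 2078), WT CMS over SSt to 700 (against 2155), KO FBS over SSt to 757 (against 2209), KO CMS over SSt to 1000 (against 2477), and the FBS and CMS interactions to 406 (against 1195) and 638 (against 1787).

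Same-numbered libraries did not deviate together (correlation -0.137 to 0.146, over 0.1 in 1 of 9 pairs in KO and 0 of 9 in WT, and the best match had the same number in 10 of 36 cases). Different-numbered libraries correlated at -0.205 to 0.252 in KO. No pairing by number was seen, but a pairing that leaves no shared deviation would not show in this way. With the replicate number as a block, 7 of 99 member values lost their adjusted p and no count of members called moved, while the genes passing in KO CMS over FBS numbered 1227, against 1910.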
